A study of Mus musculus with 9 samples.

Results

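The genes described here are the cadherins Cdh2, Cdh3, Cdh5, Cdh11 and Cdh13, the desmosomal cadherin Dsc2 (desmocollin 2), and the catenins Ctnna1, Ctnna2, Ctnnb1 and Ctnnd1, which are 10 of the 46078 genes counted in mouse ovaries. The rule took them by symbol and not by their values, but they were proposed with earlier results of these data known. Each symbol had 1 row in the count table. Whole ovaries were taken from 5 WT mice and from 4 ERβKO mice, whose Esr2 gene, encoding estrogen receptor β (ERβ), had been deleted for exon 3 in the germline with a Rosa26-Cre deleter line, and each ovary gave 1 RNA-seq library. All 9 mice were C57BL/6J and labelled untreated, and the WT controls lacked Cre. Mice were used at 4 to 20 weeks of age, without staging of the estrous cycle. The labels also attach to every sample alike a protocol of a high-fat or control diet with injections of DPN, an agonist of ERβ, or of vehicle. They do not say whether it applied to these mice or which arm a mouse was in, so any difference in diet or ligand between the genotypes cannot be told apart from the genotype. The count over the whole Esr2 gene, which includes the exons left in the knockout allele, differed by -0.02 on the log2 scale (edgeR, Benjamini-Hochberg adjusted p = 0.966), so it does not check the deletion. Values of single ovaries are listed in the order of replicate number, 1 to 5 for WT and 1 to 4 for ERβKO, and every adjusted p below is Benjamini-Hochberg adjusted over all tested genes.

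Cadherins are calcium-dependent adhesion proteins that hold neighbouring cells together by binding their like across the gap between membranes. In the adherens junction, the tail of a classical cadherin binds β-catenin and p120-catenin, and α-catenin links β-catenin to actin; β-catenin outside the junction is also the transcriptional partner of TCF/LEF factors in Wnt signalling. In the desmosome, desmocollins and desmogleins bind plakoglobin and plakophilins, which tie them to keratin filaments through desmoplakin. Granulosa cells of the ovarian follicle are joined by N-cadherin and E-cadherin junctions, and VE-cadherin joins the endothelial cells of ovarian vessels.

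Of the 10 genes, Ctnna2, encoding αN-catenin, was the only one that met all criteria in the test across all genes, at 2.32-fold lower counts in ERβKO ovaries. Dsc2 had the largest difference in counts among the 10, at 3.35-fold lower, and missed the threshold on the adjusted p. Cdh13 was the only one of the 10 with higher values in ERβKO ovaries. Ctnnb1, encoding β-catenin, was lower in all 4 ERβKO ovaries than in any WT ovary by a small margin. All 10 genes passed edgeR's filter on low counts, as did 16722 genes in all. A gene was called when its adjusted p was under 0.05, its absolute log2 fold change over 0.4 and its mean FPKM (fragments scaled to gene length and to the mapped fragments of the library, as deposited) over 1 in at least 1 genotype. By this rule edgeR called 1 of the 10 genes, in the lower direction, against 1.72% of all tested genes (0.801% lower and 0.915% higher). DESeq2 called 4 of the 10 against 4.78%: Ctnna2, Dsc2 and Cdh11 lower, against 2.56%, and Cdh13 higher, against 2.22%. By its adjusted p alone DESeq2 passed 5 of the 10, Ctnnb1 besides these, against 7.68%. At an unadjusted edgeR p under 0.05 stood 7 of the 10 genes and 19.8% of all tested genes. Log2 fold changes, ERβKO over WT, were below 0 for 9 of the 10 genes and for 50.1% of all tested genes, with a median of -0.26 for the 10 and -0.000894 for all. In log2 CPM, the counts scaled to library size, the genotypes did not overlap for 3 of the 10 genes, Ctnna2, Ctnnb1 and Dsc2, all lower, and for 7.96% of all tested genes (4.04% lower and 3.92% higher). Because the 10 genes were proposed with earlier results known, their counts beside the shares of all tested genes are a description and not a test.

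The fragments counted per library ranged from 12353740 to 18717510. On the first principal component of all tested genes, which held 35.0% of the variance, WT replicate 2 stood at 9.27, the other WT ovaries at -46.7 to -16.9 and the ERβKO ovaries at 20.5 to 37.9. WT replicates 4 and 5 carry library numbers above 200, unlike the other 7 libraries, and what the number stands for is not given. All 10 granulosa markers and 8 of 9 oocyte markers passed the filter on low counts, and the 7 oviduct epithelium markers also summed to 1414 to 2554 (WT) against 1658 to 2098 FPKM (ERβKO). In whole-ovary RNA, fewer cells of a type and less RNA per cell cannot be told apart.

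**Figure D1:**
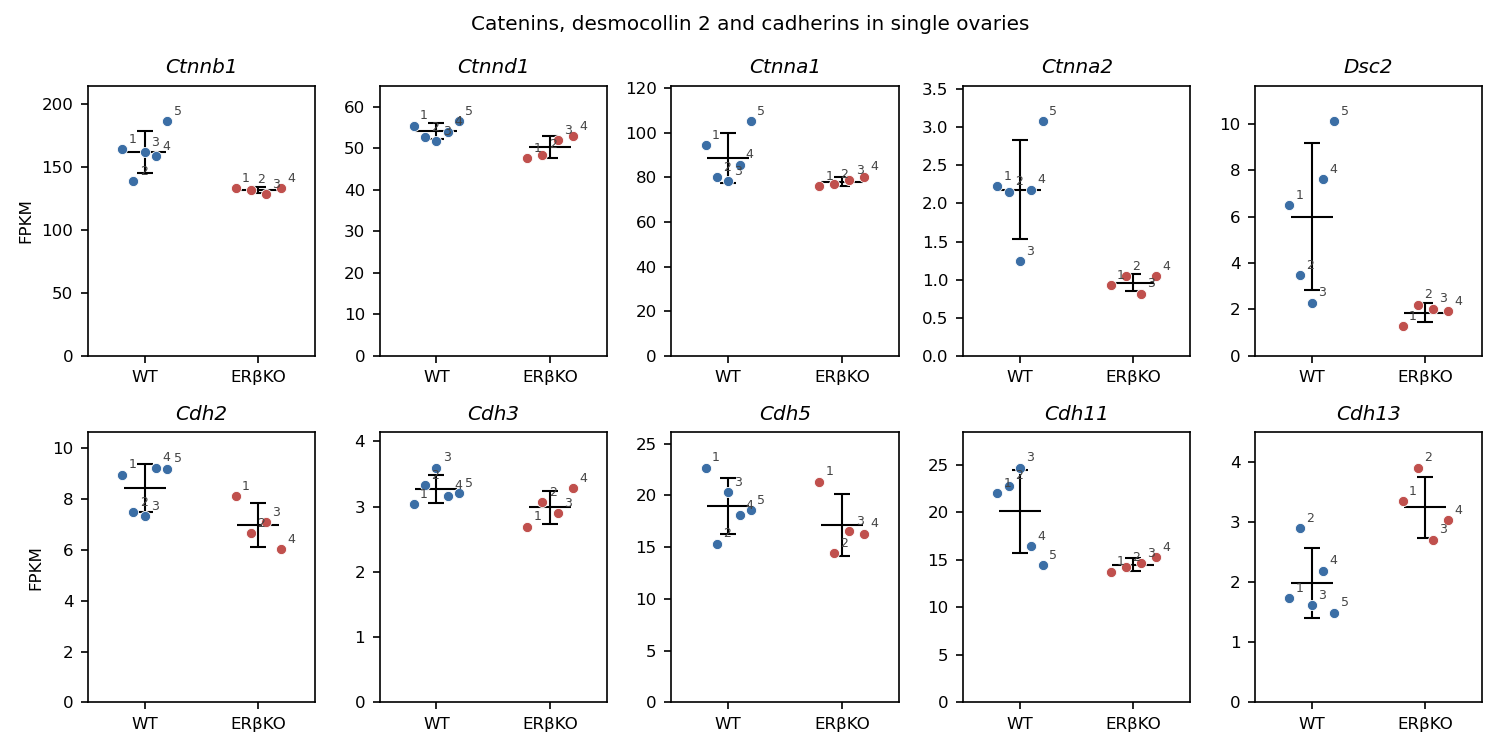
FPKM (y axes, linear from 0) of the 10 genes in single WT (blue, n = 5) and ERβKO (red, n = 4) ovaries, with replicate numbers; horizontal bars are means and whiskers SDs. The genotypes do not overlap for Ctnnb1, Ctnna2 and Dsc2, and WT replicates 4 and 5 of Cdh11 lie near the ERβKO ovaries.

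Levels, compared between genes only as FPKM, spanned from 162 ± 16.9 FPKM for Ctnnb1 to 1.99 ± 0.577 FPKM for Cdh13 in WT ovaries (mean ± SD, n = 5). The catenins Ctnnb1, Ctnna1 and Ctnnd1 ranked first to last in that order in every WT and every ERβKO ovary, all above the cadherins described here. The place of Ctnnd1 rests on an FPKM 4.60 times its scaled count, as described below, and was not checked by counts. The 4 catenins summed to 307 ± 29.0 (WT) against 261 ± 4.48 FPKM (ERβKO), and the 6 cadherins, Dsc2 included, to 58.8 ± 3.81 and 46.7 ± 2.62 FPKM. Cdh11 and Cdh5 followed, with ranges that overlapped in both genotypes; Cdh11 was the higher in 2 of 5 WT ovaries, and Cdh5 in all 4 ERβKO ovaries. Cdh2 came next in both genotypes. In WT ovaries the ranges of Cdh2, Dsc2, Cdh3, Ctnna2 and Cdh13 overlapped from one to the next. In ERβKO ovaries the order below Cdh2 was Cdh13, Cdh3, Dsc2 and Ctnna2, and Cdh13 and Cdh3 overlapped, while Dsc2 was below Cdh3 and Ctnna2 below Dsc2 in every ovary.

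Ctnna2 encodes the α-catenin known chiefly from neurons. Ctnna2 (ENSMUSG00000063063) lies on the minus strand of chromosome 6 of GRCm38, from 76881637 to 77979699. RefSeq promoter windows matched 3 of the 10 genes (Ctnna2, Ctnnb1 and Ctnnd1). The bases just before the annotated start are shown for Ctnna2, as the gene called, and for Ctnnd1, as the only one of the 3 with a match to a motif searched, both read on the minus strand of GRCm38.p6 at chr6:77979700-77979917 and chr2:84650766-84650990, with the match in capitals.
Ctnna2: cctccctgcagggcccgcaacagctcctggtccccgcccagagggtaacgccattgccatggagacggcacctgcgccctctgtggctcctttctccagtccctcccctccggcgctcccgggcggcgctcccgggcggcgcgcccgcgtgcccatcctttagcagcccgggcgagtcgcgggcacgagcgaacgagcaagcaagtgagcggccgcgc
Ctnnd1: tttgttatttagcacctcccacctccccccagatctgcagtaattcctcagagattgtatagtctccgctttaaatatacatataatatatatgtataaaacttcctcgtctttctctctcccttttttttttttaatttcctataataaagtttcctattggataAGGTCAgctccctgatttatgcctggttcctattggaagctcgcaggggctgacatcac

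The Ctnna2 stretch of 218 bases was 73.4% G or C and held 26 CpG, and that of Ctnnd1, of 225 bases, was 38.2% G or C and held 3. The median over all RefSeq windows of 250 bases was 52.4% G or C and 6 CpG. Searched on both strands were the estrogen response element (GGTCA, any 3 bases, then TGACC), its single arm AGGTCA, the NR5A motif CAAGGTCA, which contains that arm, and the GATA motif AGATAA. They were found in 0.0639%, 14.0%, 1.33% and 9.99% of the 32851 windows. No match to these letters was found in the windows of Ctnna2 and Ctnnb1, and the match in Ctnnd1 was to the single arm. Ctnnb1 had 2 windows, and the one placed lay inside the gene, 4184 bases from its annotated start. Bases outside the windows, introns and distant sites included, were not searched.

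The level of Ctnna2 was 2.23, 2.15, 1.24, 2.18 and 3.08 FPKM in the WT ovaries, against 0.929, 1.04, 0.817 and 1.05 FPKM in the ERβKO ovaries. Every ERβKO ovary was lower than every WT ovary, and WT replicate 3 was the closest. On the log2 scale the difference in counts was -1.22 (standard error 0.22; adjusted p = 0.0224 with edgeR and 8.84e-06 with DESeq2). The counts behind it were low, from 116 to 197 per WT library and 63 to 107 per ERβKO library. The two-sided exact permutation test on log2 CPM gave the smallest p that 5 ovaries against 4 allow, 0.0159. Leaving out 1 ovary at a time kept the log2 fold change between -1.34 and -1.08, while the call was lost without WT replicate 1, 4 or 5 and without ERβKO replicate 2, 3 or 4 (edgeR adjusted p up to 0.0746). It was also lost in the 3 WT and 4 ERβKO libraries numbered below 200 (log2 fold change -1.07, edgeR adjusted p = 0.126).

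Set against the other α-catenins, Ctnna2 made up 2.36% ± 0.490 of the summed FPKM of Ctnna1, Ctnna2 and Ctnna3 over the WT ovaries (SD, n = 5) but 1.21% ± 0.135 over the ERβKO ovaries (SD, n = 4). The shares ran from 1.56% to 2.84% and from 1.02% to 1.33% and did not overlap (two-sided exact permutation p = 0.0159, 0.0635 adjusted over 4 such ratios). Because the sum is almost wholly Ctnna1, the share largely repeats the separation of Ctnna2 and is not a separate result. Ctnna3, the α-catenin known from heart and testis, was at low levels of 0.157 ± 0.0283 (WT) and 0.494 ± 0.217 FPKM (ERβKO), from 9 to 60 counts per library. It was higher in ERβKO ovaries, at 0.122 to 0.201 (WT) against 0.266 to 0.744 FPKM (ERβKO), without overlap. The log2 fold change was 1.21 (adjusted p = 0.105 with edgeR and 0.0381 with DESeq2). Its mean FPKM was under 1 in both genotypes, so DESeq2 did not call it. The α-catenin of the ovary was by level almost wholly Ctnna1 in both genotypes.

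Ctnna1, encoding αE-catenin, was at 94.5, 80.1, 78.4, 85.6 and 105 FPKM in the WT ovaries, against 76.0, 76.9, 78.7 and 80.3 FPKM in the ERβKO ovaries. WT replicates 1, 4 and 5 were above every ERβKO ovary, and WT replicates 2 and 3 lay within their range. The log2 fold change of -0.22 (standard error 0.098) did not pass (edgeR adjusted p = 0.250).

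Ctnnb1, on chromosome 9 of GRCm38 from 120929216 to 120960507 (plus strand), was measured at 164, 139, 162, 159 and 186 FPKM in the WT ovaries, against 133, 132, 128 and 133 FPKM in the ERβKO ovaries. The ERβKO ovaries lay close together, with a coefficient of variation of 1.75% against 10.5% in WT, and all were below WT replicate 2, the lowest. Its log2 fold change stood at -0.33 (standard error 0.086), for which edgeR gave an adjusted p of 0.0757 and DESeq2 of 0.00716. Its size is under the fold threshold of 0.4, so neither tool called it. The exact permutation p was 0.0159. Of the exon bases of Ctnnb1, 14.6% are overlapped by Ulk4 on the opposite strand, and the strand setting of the counting is not given.

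Ctnnd1, encoding p120-catenin, which holds cadherins at the membrane, was at 51.8 to 56.6 FPKM in WT (median 54.1), against 47.6 to 53.0 FPKM in ERβKO ovaries, with overlap. The log2 fold change was -0.15 (standard error 0.10, edgeR adjusted p = 0.440). The count of this gene is uncertain: 61.2% of its exon bases are shared, on the same strand, with Gm28635, which is listed at 0 counts and 0 FPKM in every library. The FPKM of Ctnnd1 was 4.60 times its count scaled in the same way to exon length and library total (median over 9 libraries), against medians of 0.754 to 2.15 times for the other 9 genes.

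Dsc2 was the desmocollin of these ovaries, since Dsc1 reached at most 1 count and Dsc3 at most 12 counts in a library. Its level was 6.50, 3.48, 2.29, 7.61 and 10.1 FPKM in the WT ovaries, against 1.27, 2.21, 2.04 and 1.91 FPKM in the ERβKO ovaries. The WT ovaries spread over more than the distance between the genotypes, with a coefficient of variation of 52.6%, and WT replicates 2 and 3 lay near the ERβKO ovaries. Its log2 fold change stood at -1.74 (standard error 0.41), for which edgeR gave an adjusted p of 0.0581 and DESeq2 of 0.000313. The exact permutation p was 0.0159. Dsc2 passed in edgeR without WT replicate 2 (log2 fold change -1.90, adjusted p = 0.0245) and without WT replicate 3 (-1.96, adjusted p = 0.0200), the lowest of the WT ovaries. Without any other single ovary it did not pass (edgeR adjusted p from 0.106 to 0.144). With only the libraries numbered below 200, that is 3 WT and 4 ERβKO, its log2 fold change was -1.14 (edgeR adjusted p = 0.207).

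Of 16 other genes of the desmosome, 10 were tested and none was called by edgeR or DESeq2, while 2 had an unadjusted edgeR p under 0.05. Log2 fold changes were above 0 for 9 of the 10, with a median of 0.12. Dsg2, the desmoglein expressed with Dsc2 in most epithelia, was at 5.32 ± 0.893 (WT) against 5.49 ± 0.429 FPKM (ERβKO). The plaque protein Dsp was at 15.0 ± 2.37 and 18.4 ± 2.23 FPKM (edgeR adjusted p = 0.195), Ppl at 6.87 ± 0.696 and 5.83 ± 1.11 FPKM (adjusted p = 0.237) and Pkp3 at 2.15 ± 0.933 and 2.12 ± 0.316 FPKM (adjusted p = 0.411). A measure chosen after these values were seen, the log2 CPM of Dsc2 less the mean log2 CPM of the 10 other desmosome genes, was 0.75 ± 1.07 in WT and -0.97 ± 0.24 in ERβKO ovaries. The lowest WT ovary stood at -0.52 and the highest ERβKO ovary at -0.79, and since the separation of Dsc2 was known when the measure was chosen, these values are a description with no test.

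**Figure D2:**
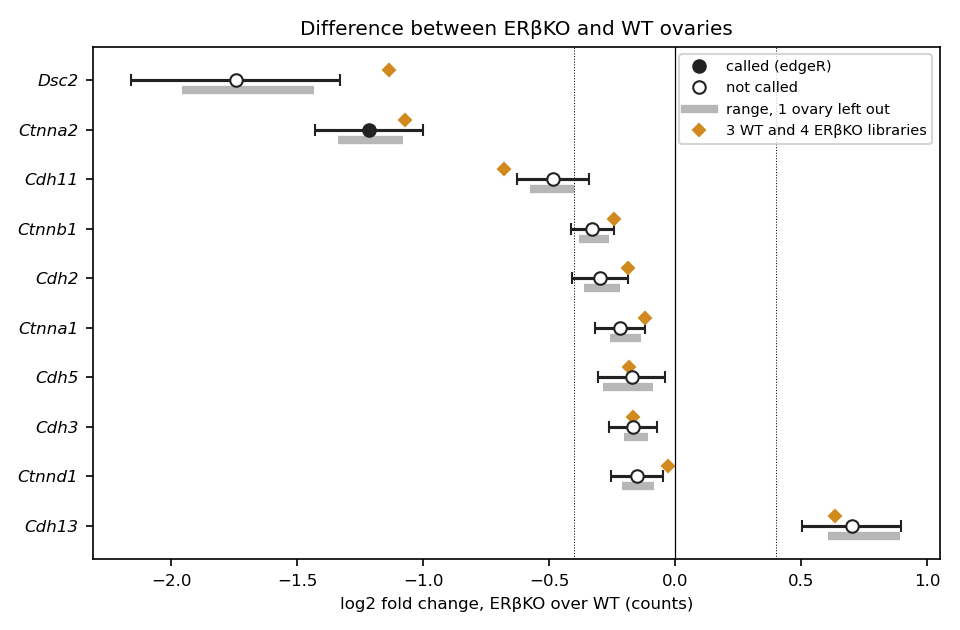
Log2 fold changes of counts, ERβKO over WT (x axis; dotted lines at the fold threshold of 0.4), for the 10 genes. Circles are edgeR estimates with standard errors, filled where called; grey bars span the estimates with 1 ovary left out, and diamonds use the 3 WT and 4 ERβKO libraries numbered below 200. Ctnna2 is the filled circle and Cdh13 the only gene to the right of 0.

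Luteal markers were mostly lower in ERβKO ovaries, as were Ctnna2 and Dsc2. Of the 10 luteal markers, 9 had log2 fold changes below 0, none called by edgeR (5 with an unadjusted p under 0.05) and 3 by DESeq2. The list summed to 3133 to 6740 (WT) against 2588 to 4076 FPKM (ERβKO). Granulosa markers were higher in ERβKO ovaries for 10 of 10, with 2 called by edgeR, Inhbb and Hsd17b1, and 4 by DESeq2, and summed to 607 to 735 (WT) against 840 to 1119 FPKM (ERβKO). The mean luteal log2 CPM was 8.53 to 9.60 in the WT ovaries and 7.25, 7.18, 9.25 and 8.08 in the ERβKO ovaries, of which replicates 1, 2 and 4 were below every WT ovary and replicate 3 was within the WT range. The part of the luteal and granulosa markers in the differences of Ctnna2 and Dsc2 was not tested. Of the theca, mural, surface epithelium, oviduct epithelium, macrophage and oocyte markers edgeR called none (1, 4, 2, 2, 0 and 0 at an unadjusted p under 0.05), and DESeq2 called 1, a mural marker, lower.

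Cdh11, a cadherin of mesenchymal cells, was at 22.0, 22.8, 24.7, 16.5 and 14.4 FPKM in the WT ovaries, against 13.7, 14.2, 14.6 and 15.3 FPKM in the ERβKO ovaries. WT replicates 1 to 3 stood well above all ERβKO ovaries, WT replicate 4 just above and WT replicate 5 among them. The difference was -0.48 on the log2 scale (standard error 0.14; adjusted p = 0.106 with edgeR and 0.0313 with DESeq2). Without WT replicates 4 and 5, the libraries numbered above 200, it was -0.68 (standard error 0.078) with an edgeR adjusted p of 0.0205, which made Cdh11 one of the 0.303% of tested genes called, 0.125% lower, in those 7 libraries. The mean log2 CPM of 9 stromal markers was 7.71, 8.25, 8.21, 7.66 and 7.50 in the WT ovaries and between 7.82 and 8.14 in the ERβKO ovaries. None of the 9 was called by edgeR or DESeq2, and 2 had an unadjusted edgeR p under 0.05. Among them Dcn, higher in ERβKO ovaries, had a DESeq2 adjusted p of 0.0112 but a log2 fold change of 0.32, under the fold threshold. WT replicates 4 and 5 were the lowest of the WT ovaries in both Cdh11 and these markers, and the part of the markers in the spread or the difference of Cdh11 was not tested.

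Cdh2, encoding N-cadherin, was at 8.97, 7.48, 7.33, 9.24 and 9.20 FPKM in the WT ovaries, against 8.12, 6.68, 7.10 and 6.03 FPKM in the ERβKO ovaries. The groups overlapped through ERβKO replicate 1, and the log2 fold change of -0.30 (standard error 0.11) did not pass (edgeR adjusted p = 0.183). Cdh11 made up 69.7% ± 6.97 of the summed FPKM of Cdh2 and Cdh11 over the WT ovaries (SD, n = 5) against 67.5% ± 3.65 over the ERβKO ovaries (SD, n = 4), a difference within the spread (two-sided exact permutation p = 0.571). Cdh3, encoding P-cadherin, was at 3.04 to 3.60 FPKM in WT (median 3.21), against 2.69 to 3.29 FPKM in ERβKO ovaries, with overlap (log2 fold change -0.17, standard error 0.096, edgeR adjusted p = 0.363). Cdh1, the E-cadherin of epithelia, which is not among the 10, was at 27.6 ± 7.49 and 32.6 ± 3.86 FPKM, a higher level than any of the 5 cadherins with CDH symbols described here (edgeR adjusted p = 0.531).

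Cdh5, encoding VE-cadherin, was at 15.3 to 22.7 FPKM in WT (median 18.5), against 14.4 to 21.3 FPKM in ERβKO, and its log2 fold change of -0.17 (standard error 0.13) did not pass (edgeR adjusted p = 0.50). Of 12 other endothelial markers none was called by edgeR and 2 were called higher by DESeq2, with 3 at an unadjusted edgeR p under 0.05 and a median log2 fold change of -0.07. Relative to their mean log2 CPM, Cdh5 stood 1.74 ± 0.15 higher in WT and 1.52 ± 0.17 higher in ERβKO ovaries (two-sided exact permutation p = 0.0794, 0.106 adjusted over the 4 ratios).

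Cdh13, encoding T-cadherin, which has no cytoplasmic tail, is held by a lipid anchor and binds adiponectin, was at 1.73, 2.91, 1.61, 2.19 and 1.49 FPKM in the WT ovaries. In the ERβKO ovaries it was at 3.35, 3.91, 2.71 and 3.04 FPKM. WT replicate 2 lay within the ERβKO range, and the other 4 WT ovaries were below every ERβKO ovary. Counts were 1.63-fold higher, or 0.70 on the log2 scale (standard error 0.20; adjusted p = 0.0925 with edgeR and 0.0206 with DESeq2; exact permutation p = 0.0317). Without WT replicate 2, which also stood apart on the first principal component, edgeR called it (log2 fold change 0.89, adjusted p = 0.0108). In that setting edgeR called 919 genes in all, 488 of them higher, against 287 and 153 with all ovaries. Without any other single ovary Cdh13 was not called (edgeR adjusted p from 0.125 to 0.242). Relative to the endothelial markers, Cdh13 was at -1.65 ± 0.45 in WT and -0.96 ± 0.25 in ERβKO ovaries on the log2 CPM scale (two-sided exact permutation p = 0.0635, 0.106 adjusted over the 4 ratios). Adipocyte markers were higher in ERβKO ovaries for 8 of 8, none called by edgeR, 8 at an unadjusted p under 0.05 and 3 called by DESeq2, with sums of 139 to 267 (WT) against 158 to 1033 FPKM (ERβKO). Their mean log2 CPM was 4.18 to 5.18 in the WT ovaries and 7.09, 5.61, 6.00 and 4.24 in the ERβKO ovaries, of which replicates 1 to 3 were above every WT ovary and replicate 4 was within the WT range. The part of the adipocyte markers in the difference of Cdh13 was not tested.

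**Figure D3:**
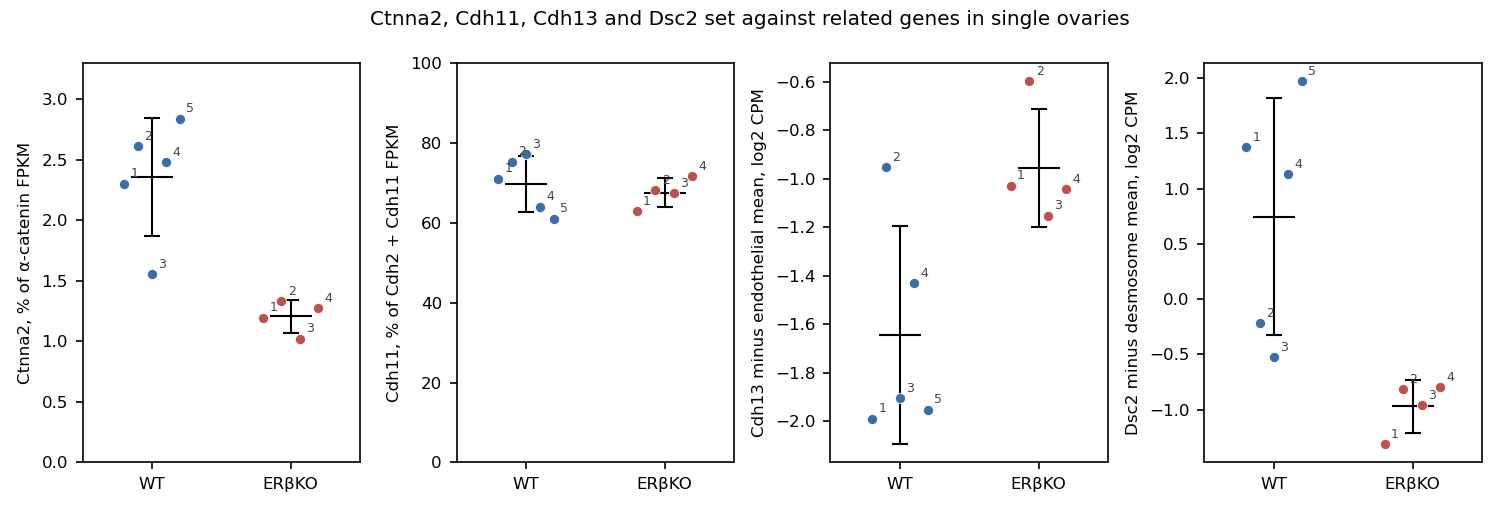
Ctnna2 as a percent of α-catenin FPKM, Cdh11 as a percent of Cdh2 plus Cdh11 FPKM, and Cdh13 and Dsc2 relative to the mean of endothelial or other desmosome genes (log2 CPM), in single WT (blue, n = 5) and ERβKO (red, n = 4) ovaries with replicate numbers; bars are means and whiskers SDs. The genotypes are apart for Ctnna2 and Dsc2 and overlap for Cdh11 and Cdh13; the Dsc2 measure was chosen after its values were seen and is a description.

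Of 35 other cadherin genes 24 were tested and 1 was called, Clstn3, a calsyntenin, at 10.7 ± 2.38 (WT) against 3.62 ± 1.49 FPKM (ERβKO) (log2 fold change -1.61, standard error 0.27, edgeR adjusted p = 0.0194). Log2 fold changes were below 0 for 11 and above 0 for 13, with a median of 0.22. Cdh15, the M-cadherin of muscle, was at 0.0577 to 2.08 (WT) against 0 to 0.0993 FPKM (ERβKO), with overlap. Its adjusted p was 0.0577 with edgeR and 9.21e-05 with DESeq2. Its mean of 0.915 FPKM in WT is under the threshold of 1, so DESeq2 did not call it. The giant cadherin Fat1 was at 21.1 ± 3.45 and 29.0 ± 3.29 FPKM (edgeR adjusted p = 0.139). Of 20 other catenins and junction adaptors 15 had a row under their symbol and were tested, and 1 was called, the scaffold Magi1, at 5.85 ± 0.461 and 8.57 ± 0.877 FPKM (log2 fold change 0.52, standard error 0.075, edgeR adjusted p = 0.0115). The armadillo protein Pkp4 was at 14.6 ± 1.32 and 17.8 ± 0.745 FPKM (adjusted p = 0.0949), and Ctnnal1 at 13.1 ± 1.29 and 15.4 ± 1.11 FPKM (adjusted p = 0.0957). The list had 10 log2 fold changes above 0, 5 below and a median of 0.10.

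For β-catenin signalling, neither the destruction complex, which marks β-catenin for degradation, nor the transcriptional partners and targets had a called gene in edgeR or DESeq2. The complex had 13 tested genes, 2 at an unadjusted edgeR p under 0.05, 7 log2 fold changes below 0 and a median of -0.02. Csnk1a1, which phosphorylates β-catenin, was at 75.6 ± 4.08 (WT) against 64.9 ± 2.93 FPKM (ERβKO) without overlap. Its adjusted p was 0.0998 with edgeR and 0.0135 with DESeq2. Its log2 fold change of -0.21 is under the fold threshold of 0.4, so DESeq2 did not call it. The ubiquitin ligase subunit Btrc was at 5.85 ± 0.632 and 5.11 ± 0.476 FPKM (edgeR adjusted p = 0.244). Amer1 was at 2.85 ± 0.300 and 3.27 ± 0.191 FPKM (edgeR adjusted p = 0.269). The partners and targets had 18 tested genes, 3 at an unadjusted p under 0.05, 8 log2 fold changes below 0 and a median of 0.01. Lgr5, the R-spondin receptor, was at 7.21 to 9.04 (WT) against 5.49 to 7.20 FPKM (ERβKO), without overlap. Its adjusted p was 0.0845 with edgeR and 0.0170 with DESeq2. Its log2 fold change of -0.39 is also under the fold threshold, so DESeq2 did not call it. Pygo2 was at 14.8 ± 1.61 and 18.6 ± 3.28 FPKM (edgeR adjusted p = 0.112) and Tcf7l1 at 5.91 ± 0.945 and 7.31 ± 0.276 FPKM (edgeR adjusted p = 0.213). Axin2, a widely used readout of this signalling, was at 8.57 ± 1.26 and 8.69 ± 0.847 FPKM (edgeR adjusted p = 0.935).

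**Figure D4:**
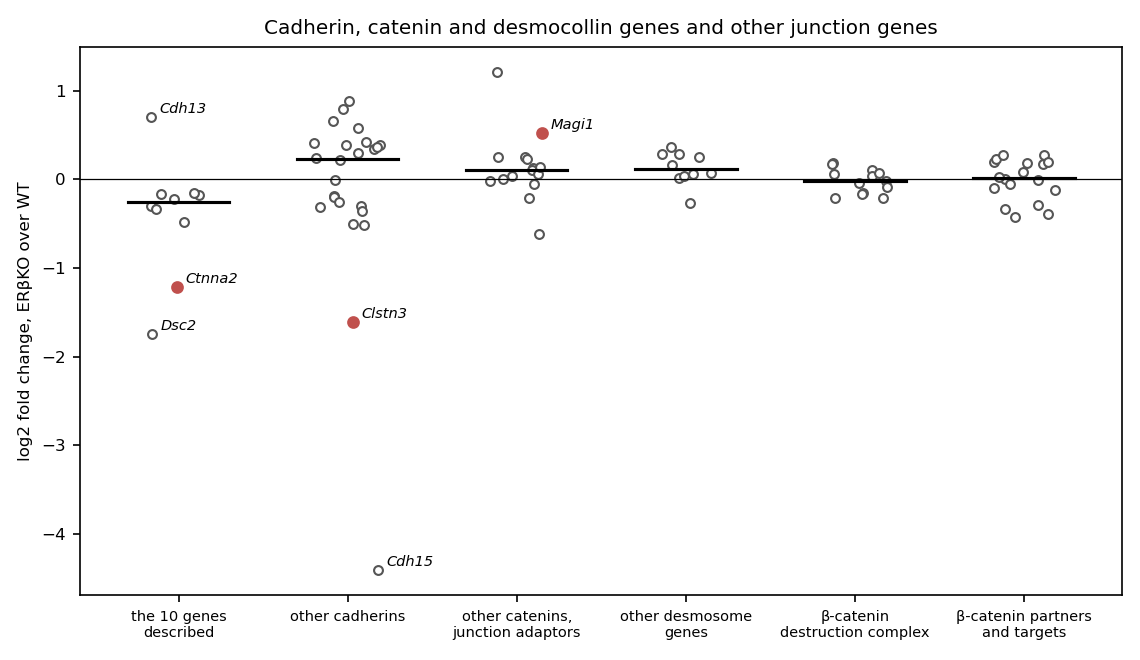
Log2 fold changes of counts, ERβKO over WT (y axis), of the 10 genes and of the tested genes of 5 other lists of junction and β-catenin genes; points are genes, filled where called by edgeR, and bars are medians. The 10 genes have a median of -0.26, against -0.02 to 0.22 for the other lists, with Clstn3 and Magi1 filled besides Ctnna2.

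The genes whose log2 CPM followed most closely that of Ctnna2 over the 9 ovaries, after each genotype's mean was subtracted, were Gja1 (Pearson's r = 0.972, Spearman's ρ = 0.983), Ext1 (r = 0.971, ρ = 0.933) and Gm11494 (r = 0.956, ρ = 0.933). Without the 2 ovaries farthest from the median, r was 0.943, 0.821 and 0.923. Gja1 itself was at 339 ± 51.4 (WT) against 509 ± 88.8 FPKM (ERβKO), so its difference between the genotypes had the opposite sign. The same held for Gm11494, at low means of 0.190 (WT) and 0.594 FPKM (ERβKO). Ext1 was lower in ERβKO ovaries, at means of 16.3 (WT) and 13.0 FPKM (ERβKO). For Cdh13 the closest were Rsph1 (r = 0.966, ρ = 0.883), Mlip (r = 0.965, ρ = 0.900) and Rhob (r = 0.964, ρ = 0.883), with r of 0.897, 0.949 and 0.956 without the 2 farthest ovaries. These are the highest of 16722 genes, share each ovary's library and depth, and are given as a description.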

How the data were processed

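Whole-ovary RNA of 5 WT and 4 ERβKO mice was sequenced, 1 library per mouse, after poly-A selection with a stranded kit; the strand setting of the counting is not given in the sources used here. The authors mapped the reads to GRCm38 with STAR and deposited raw fragment counts per gene from featureCounts. The deposited FPKM values were calculated by the authors with StringTie per gene length and mapped fragments of the library. Deposited with them were TPM and coverage values, also from StringTie and not used for a result. Where a gene ID had several FPKM rows, these were summed.

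Counts were fitted in R 4.3.3 with edgeR 4.0.16 (TMM, filterByExpr, quasi-likelihood test, Benjamini-Hochberg adjustment over 16722 genes, genotype as the factor), with DESeq2 1.42.0 as an alternative and limma 3.58.1 on log2(FPKM + 1) or log2(FPKM + 0.1). The edgeR and DESeq2 tests were tried on simulated counts in which 200 genes were changed. These counts were drawn with the dispersions that edgeR estimated from these data. At an adjusted p under 0.05, edgeR found 95% of the changed genes and DESeq2 98%. Of the genes that passed, 6.4% with edgeR and 18.7% with DESeq2 had not been changed. The thresholds on fold change and FPKM were not used there, so these shares are not error rates of the calls above. Standard errors were taken from the log2 fold change and its F statistic. For a value held once per ovary, all 126 splits into 5 and 4 gave a two-sided exact permutation test (Python 3.11.15), whose smallest p is 0.0159. Log2 CPM used a prior count of 0.5.

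Named were the 10 genes, the called genes of each junction list with the 3 of smallest p, at most 3 genes of a marker list, and the 3 genes most correlated with Ctnna2 and Cdh13; Esr2, Cdh1, Axin2, Ctnna3, Dsg2, Dsc1 and Dsc3 were added after values were seen. The genes, lists and alternatives were chosen with earlier results of these data known. Gene overlaps were taken from GENCODE M21. Alternatives were other size factors, filters and tools, a block on replicate number, leaving out every library once, and only the libraries numbered below 200. One of the marker lists is not reported here.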

Additional observations from a re-analysis of the deposited data

How the results depend on the processing

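Of 190 results of single genes among the 10 under 19 alternatives each, none reversed, 171 kept their side of the threshold, 11 fell short of it and 8 newly passed; the 11 were all of Ctnna2. The genes called across the table, 287 with edgeR, were 800 with DESeq2, 155 with the replicate block, 51 in the libraries numbered below 200, 39 with limma on log2(FPKM + 1) without a filter, and 60 to 919 with 1 ovary left out, the lowest without ERβKO replicate 2 and the highest without WT replicate 2. Of the 10 genes, 1 was called with edgeR, 4 with DESeq2, 2 with no filter on low counts and 0 to 3 with 1 ovary left out. With the replicate block 0 were called (6 at an unadjusted p under 0.05), and Ctnna2 had a log2 fold change of -1.11 (edgeR adjusted p = 0.0915). With limma 0 were called on log2(FPKM + 1), on log2(FPKM + 0.1) and without a filter (6, 6 and 7 at an unadjusted p under 0.05). Same-numbered ovaries correlated at 0.0972, 0.126, -0.0303 and 0.00018 after centring, and none correlated best with its own number. Whether same-numbered ovaries shared a litter or a day of collection cannot be told from these values. The difference in the Ctnna2 share of α-catenin FPKM was -0.951 percentage points in the libraries numbered below 200, where the exact permutation p of 0.0571 is the smallest possible. With 1 ovary left out, the difference of Cdh5 relative to endothelial markers ran from -0.29 to -0.16 and that of Cdh13 from 0.57 to 0.86 on the log2 scale. Without WT replicate 2 both had an unadjusted exact permutation p of 0.0286, the smallest that 4 ovaries against 4 allow. Without any other single ovary this p was 0.0714 to 0.179 for Cdh5 and 0.107 to 0.143 for Cdh13. The cause of these shifts was not tested.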
